A study of Mus musculus with 9 samples.

Results

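A set of 10 genes of the Hippo-YAP pathway was followed through RNA-Seq of mouse NMuMG cells: Yap1, Wwtr1, Tead1, Tead4, Lats1, Lats2, Ctgf, Cyr61, Ankrd1 and Amotl2. They were chosen by gene symbol as the pathway's effectors, DNA-binding partners, inhibitory kinases and best known target genes. They are 10 of the 52459 gene symbols in the files, and all 10 were among the 15370 genes that passed the filter on low counts. NMuMG is an immortalized epithelial line from mouse mammary gland. All 9 libraries came from cells that were stably transfected with a pBICEP-based vector and selected with G418 as pools rather than as single clones. The 3 mock libraries carried the empty vector, the 3 EPR libraries the vector for the long non-coding RNA EPR (BC030870), and the 3 EPRSTOPE libraries the vector for a point mutant of EPR that cannot make its small peptide. Comparing mock with EPR asks what overexpression of EPR does, with its RNA and peptide together. Comparing mock with EPRSTOPE asks what the mutant RNA does without the peptide, and comparing EPR with EPRSTOPE asks what differs when the peptide cannot be made.

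The Hippo pathway is a kinase cascade in which MST1 and MST2 activate LATS1 and LATS2, and the LATS kinases phosphorylate the co-activators YAP (Yap1) and TAZ (Wwtr1) so that these are kept in the cytoplasm or degraded. YAP and TAZ that reach the nucleus bind the TEAD factors and switch on genes for growth, matrix and cytoskeleton, among them Ctgf, Cyr61, Ankrd1 and Amotl2. In epithelia the cascade responds to cell contact, polarity and tension, and Lats2 and Amotl2 are both targets of YAP and inhibitors of it. RNA-Seq reads the levels of these transcripts and not the phosphorylation or the location of YAP and TAZ.

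TEAD factors bind DNA through a core motif with the letters GGAATG, or CATTCC when it is read on the other strand. The promoter windows of RefSeq (GRCm38.p6), with 250 bases before each start site, held an entry for 7 of the 10 genes. Tead1, Tead4 and Ctgf had none. The motif was found on one strand or the other in the windows of 5 of these 7 genes (Yap1, Wwtr1, Cyr61, Ankrd1 and Amotl2), against 12.6% of all 32851 windows. Wwtr1 and Lats2 had 2 windows each and were counted once, so genes are set beside windows here. The genes were also chosen as members and known targets of the pathway. Each of the 5 genes is shown by the 30 bases around its motif, 5′ to 3′ on the gene's own strand and with the motif in capitals, and Cyr61, which RefSeq lists as Ccn1, by its whole window. The first base of the motif lay 141 bases before the start in Yap1, 136 in Wwtr1 (170 from a second start), 103 in Cyr61, 210 and 123 in Ankrd1 and 65 in Amotl2.
Yap1, chr9:8004720-8004749, minus strand: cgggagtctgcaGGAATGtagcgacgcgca
Wwtr1, chr3:57576029-57576058, minus strand: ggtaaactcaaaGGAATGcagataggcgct
Cyr61, chr3:145650071-145650100, minus strand: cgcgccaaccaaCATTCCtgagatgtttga
Ankrd1, farther site, chr19:36120037-36120066, minus strand: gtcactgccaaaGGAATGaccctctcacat
Ankrd1, nearer site, chr19:36119950-36119979, minus strand: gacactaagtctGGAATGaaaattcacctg
Amotl2, chr9:102717727-102717756, plus strand: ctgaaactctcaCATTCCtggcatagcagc
Cyr61, whole window, chr3:145649986-145650235, minus strand: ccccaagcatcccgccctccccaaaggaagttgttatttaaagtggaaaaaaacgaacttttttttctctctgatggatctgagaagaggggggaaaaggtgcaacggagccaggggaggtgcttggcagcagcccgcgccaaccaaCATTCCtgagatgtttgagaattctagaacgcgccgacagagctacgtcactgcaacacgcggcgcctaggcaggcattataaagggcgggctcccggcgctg
The sites of Ankrd1 and Amotl2, with the bases shown around them, overlap an untranslated region in the Gencode annotation. They lie before the start used for the window but inside the Gencode span of their own genes. The sites of Yap1, Wwtr1 and Cyr61 lie outside any annotated untranslated region. Ankrd1 was alone among the 7 genes in holding the motif more than once, as 1.02% of all windows do. A match of 6 letters is a description of the sequence and shows no binding.

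The libraries held 5972457 to 11876435 estimated counts, so that 3 counts were worth 0.253 to 0.502 counts per 1000000 (CPM). EPR RNA was at 0, 0 and 2 estimated counts in the mock libraries, at 214 to 271 in the EPR libraries and at 28 to 39 in the EPRSTOPE libraries. This was 24.9 CPM ± 1.87 (SD, n = 3) in EPR cells and 4.24 CPM ± 0.477 (SD, n = 3) in EPRSTOPE cells, so the mutant RNA was counted at a lower level and the mutation and the level cannot be told apart in the comparison of EPR with EPRSTOPE. Of 13 mammary epithelial markers, 6 were at 0 in every mock library (Epcam, Krt5, Cldn3, Cldn4, Cldn7 and Esrp1). The EPRSTOPE libraries had 4 markers at 0 throughout, and the EPR libraries 1 (Krt14). Of the 6, Epcam alone exceeded 1 CPM with EPR, at a mean of 3.63. The others had means of 0.0623 (Cldn3) to 0.263 CPM (Krt5) there, close to or below the worth of 3 counts. A level of 1 CPM or more was reached by 4 markers with the empty vector and by 6 with either EPR vector. Summed over the 13 markers, the level was 3694 to 4159.5 CPM in the mock libraries. It was 9491.7 to 10599 CPM in the EPR libraries and 10683 to 11022 CPM in the EPRSTOPE libraries, most of it the keratins Krt8 and Krt18. Cdh1, which encodes E-cadherin, was at 2, 11 and 13 estimated counts in the mock libraries, at 556 CPM ± 13.7 (SD, n = 3) in EPR and at 403 CPM ± 22.8 in EPRSTOPE cells. Of 9 fibroblast and mesenchymal markers, Vim alone exceeded 1 CPM in mock cells, where the list summed to 2536 to 2744.9 CPM, against 1643.9 to 1843.4 in EPR and 3016.4 to 3233.8 in EPRSTOPE cells. Nearly all of each sum was Vim, with means of 2633.9, 1767.9 and 3138.4 CPM, so the sums describe this gene. Pdgfra went the other way in EPR cells, from 0 in every mock library to a mean of 1.19 CPM. Its mean was 1.30 CPM in EPRSTOPE cells. Endothelial markers summed to 12.9 to 19.7 CPM over all libraries, immune markers to 1.63 to 4.04 and adipocyte markers to 0.407 to 1.86. Mitochondrial transcripts took 1.18% to 1.39% of the counts in mock, 1.90% to 2.58% in EPR and 1.62% to 1.68% in EPRSTOPE libraries, with no overlap. The part of these shifts in the values that follow was not tested, and fewer cells of a kind cannot be told apart from less RNA per cell.

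Among the Hippo-YAP genes, Ankrd1 and Lats2 rose and Cyr61, Tead1 and Tead4 fell in EPR cells against mock. In EPRSTOPE cells Lats2 and Amotl2 rose and Tead1 and Ctgf fell. Yap1, Wwtr1 and Lats1 did neither. A gene passed the cut-offs when its p, adjusted over all tested genes in the quasi-likelihood fit of edgeR, was below 0.01 and its log2 fold change exceeded 0.5 in size.

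Of the 10 genes, 5 passed in EPR against mock, where 28.1% of all tested genes did. The 2 that rose stand beside 15.2% of all genes that rose, and the 3 that fell beside 12.9% that fell. In EPRSTOPE against mock 4 passed, beside 28% of all genes, with 2 higher (15.6% of all genes) and 2 lower (12.4%). In EPR against EPRSTOPE 5 passed, beside 13.2% of all genes, with 1 higher (6.86%) and 4 lower (6.35%). The median log2 fold change of the 10 genes was -0.13, -0.22 and -0.07 in the 3 comparisons, beside -0.01, -0.04 and 0.01 for all tested genes. Both comparisons with mock share the mock libraries, and every library enters more than 1 comparison. The libraries of a condition are described as biological triplicates. The study speaks of several transfectant pools, but the sources used here do not tie each library to a pool, so the p-values measure the spread between these libraries.

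**Figure D1:**
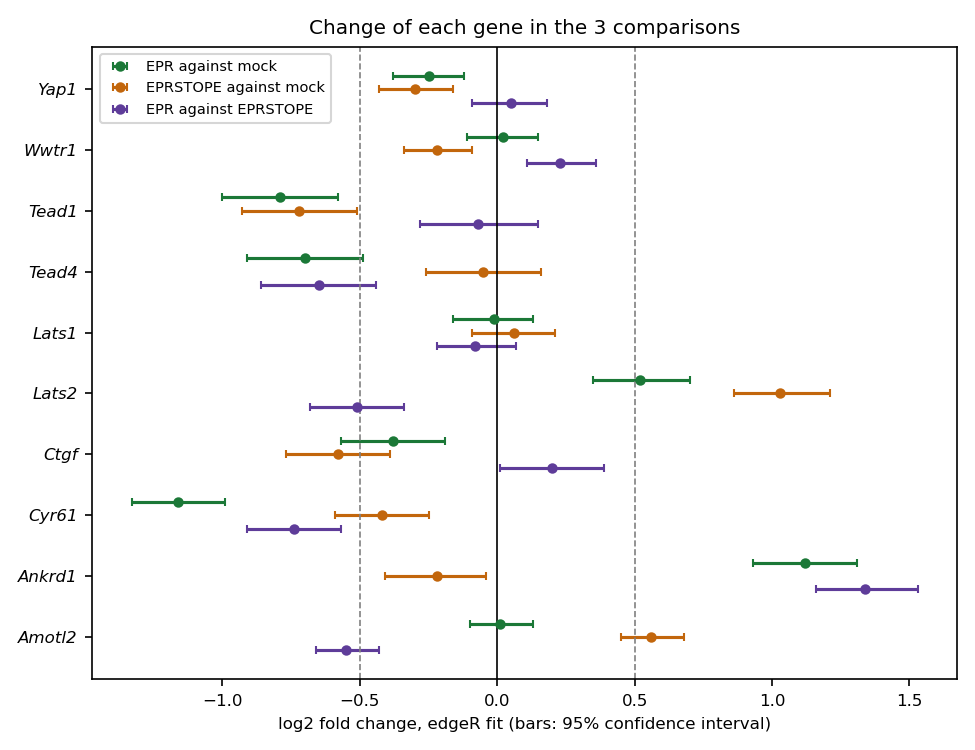
The fitted log2 fold change of each gene is plotted for EPR against mock (green), EPRSTOPE against mock (orange) and EPR against EPRSTOPE (purple), with bars for the 95% confidence interval and dashed lines at -0.5 and 0.5. Ankrd1 lies at 1.12, -0.22 and 1.34 and Cyr61 at -1.16, -0.42 and -0.74, while the points of Yap1, Wwtr1 and Lats1 lie between -0.30 and 0.23.

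The co-activators passed the cut-offs in no comparison. Yap1, which encodes YAP (chr9:7931999-8004596, minus strand, GRCm38), stood at 158, 173 and 154 CPM in the mock libraries, at 135, 131 and 141 in EPR and at 128, 134 and 132 in EPRSTOPE. Every EPR and EPRSTOPE library was below every mock library, with log2 differences of -0.25 (95% confidence interval -0.38 to -0.12, adjusted p = 0.0048) and -0.30 (-0.43 to -0.16, adjusted p = 0.0016) that missed the limit on the fold change. Wwtr1, which encodes TAZ (chr3:57455649-57575910, minus strand), stood at 124, 124 and 125 CPM in mock, at 126, 128 and 125 in EPR and at 101, 114 and 106 in EPRSTOPE. Its log2 difference from mock was 0.02 (-0.11 to 0.15) in EPR cells and -0.22 (-0.34 to -0.09, adjusted p = 0.0086) in EPRSTOPE cells, and all EPRSTOPE libraries were lower than the others. On the TPM scale, which corrects counts for transcript length so that genes can be compared, there was 2.69 ± 0.237 (SD, n = 3) times as much Yap1 as Wwtr1 in mock cells, 1.83 ± 0.194 in EPR and 2.14 ± 0.252 in EPRSTOPE cells. The ratio in every mock library (2.43 to 2.89) was above that in every EPR library (1.61 to 1.99) and every EPRSTOPE library (1.90 to 2.40), whose ranges overlap. TPM depends on how reads were divided among the transcripts of a gene. By the CPM values above, the ratios of Yap1 to Wwtr1 in EPR libraries were also below those in mock, while those of mock and EPRSTOPE libraries overlapped. The TPM ratios are given as a description with no test. An exact permutation test of 3 libraries against 3 cannot go below p = 0.1.

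Of the TEAD genes, Tead1 fell in both transfectants, and Tead4 fell in EPR cells and did not pass in EPRSTOPE cells. Tead1 (chr7:112679318-112906807, plus strand), one of the 4 TEAD genes, stood at 93.5, 94.6 and 102 CPM in mock, at 61.4, 51.8 and 54.4 in EPR and at 49.6, 60.7 and 65.0 in EPRSTOPE. The mock libraries did not overlap with the others, while EPR and EPRSTOPE libraries did overlap. Tead1 fell by 0.79 on the log2 scale in EPR cells (SE 0.10, adjusted p = 2.7e-05) and fell by 0.72 in EPRSTOPE cells (SE 0.10, adjusted p = 6e-05), which is 42.2% and 39.5% of the mean CPM in mock. The difference between EPR and EPRSTOPE was -0.07 (95% confidence interval -0.28 to 0.15).

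Tead4 (chr6:128224288-128300823, minus strand), the TEAD factor known from the trophectoderm of the early embryo, was lower in EPR cells than in both other conditions. It stood at 32.2, 35.9 and 30.7 CPM in mock, at 21.7, 20.3 and 18.8 in EPR and at 32.2, 29.8 and 33.5 in EPRSTOPE. The 3 EPR libraries lay below all others, and mock and EPRSTOPE libraries overlapped. Tead4 fell by 0.70 on the log2 scale against mock (SE 0.10, adjusted p = 8e-05) and was lower by the same test against EPRSTOPE, with a log2 difference of -0.65 (SE 0.10, adjusted p = 0.00036). The difference between EPRSTOPE and mock was -0.05 (-0.26 to 0.16). With counts rescaled from TPM and length, the log2 differences of Tead4 were -0.45 and -0.63 and neither passed, and that of Tead1 in EPRSTOPE cells was -0.89 and did not pass.

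Tead2 and Tead3 were no members of the set but complete the family. Tead2 fell in EPR cells, from 87.8 ± 9.46 CPM (SD, n = 3) to 56.9 ± 6.27 (log2 fold change -0.63, adjusted p = 0.00016), and was at 66.0 CPM in EPRSTOPE cells (log2 difference -0.42, adjusted p = 0.0032), short of the limit on the fold change. Tead3 fell in both, from 15.6 CPM to 8.88 in EPR (-0.83, adjusted p = 0.00062) and 7.68 in EPRSTOPE cells (-1.03, adjusted p = 0.00015). Summed over Tead1 to Tead4, TEAD TPM was 156 ± 25.8 (SD, n = 3) in mock cells, 72.1 ± 6.26 in EPR and 85.4 ± 20.8 in EPRSTOPE cells, and the lowest mock library (141) was above the highest EPR library (78.7) and the highest EPRSTOPE library (109). Tead2 supplied most of this sum, at 63.3% ± 3.54, 60.4% ± 2.30 and 60.1% ± 6.74. Tead4 supplied 7.73% ± 0.452 of it in mock cells, 11.0% ± 2.70 in EPR and 14.8% ± 2.90 in EPRSTOPE cells, and its share was lowest in the 3 mock libraries. TPM depends on how reads were divided among the transcripts of a gene, and mean Tead2 TPM fell from 99.5 in mock to 43.5 in EPR cells, more steeply than its CPM. In the fit of counts, Tead1 to Tead4 changed by -0.79, -0.63, -0.83 and -0.70 in EPR cells against mock. The higher share of Tead4 in EPR cells was thus seen on the TPM scale only.

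**Figure D2:**
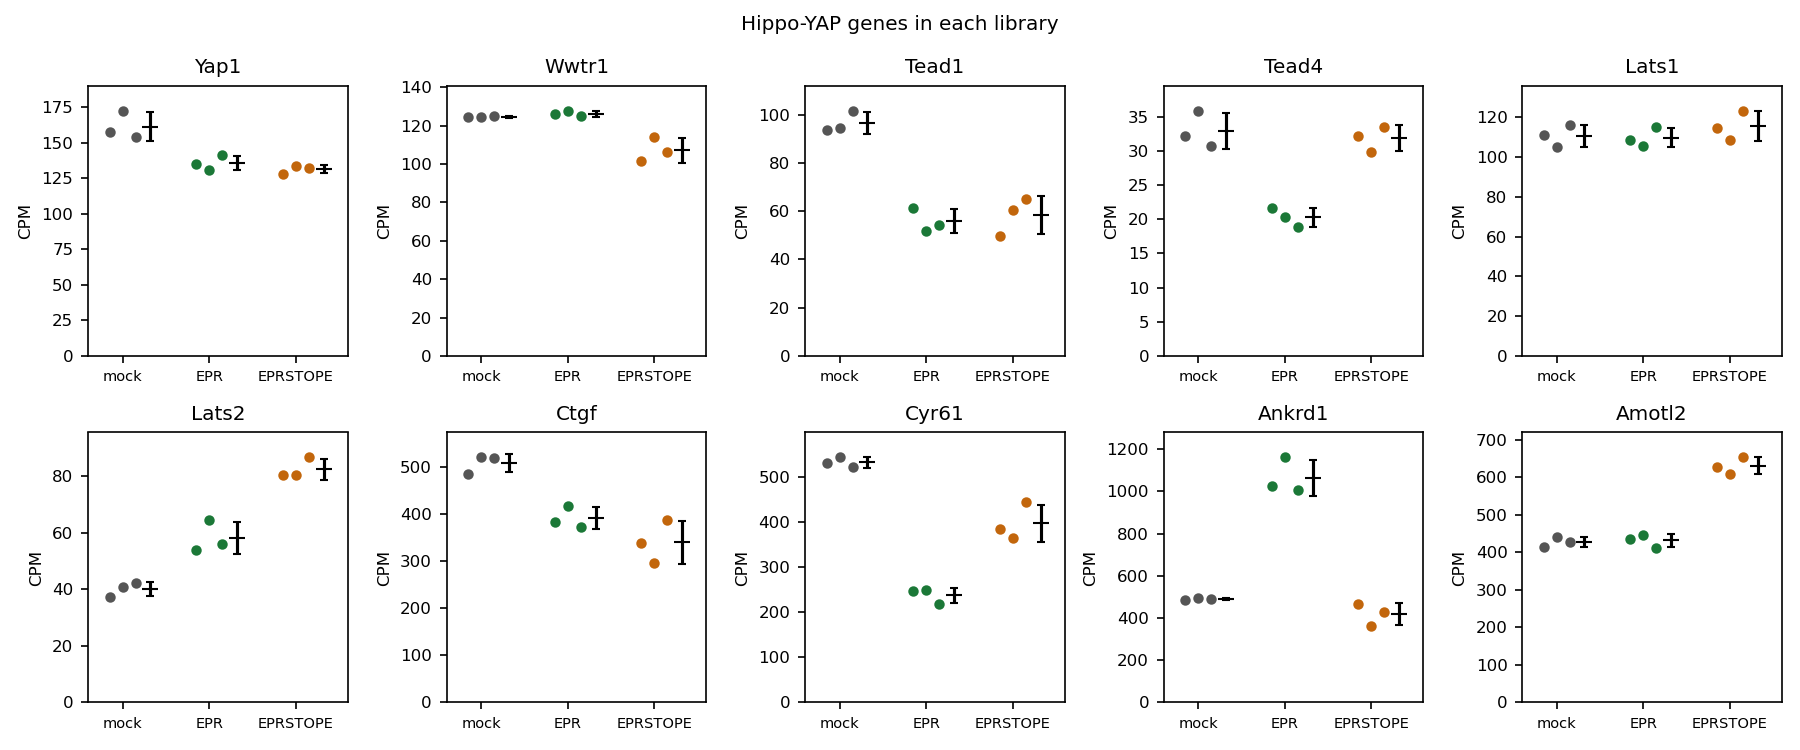
CPM of each gene is plotted on an axis from 0 in each of the 3 mock, 3 EPR and 3 EPRSTOPE libraries, with a black line and bars for the mean and SD beside the points. The EPR points of Ankrd1 lie at 1008 to 1162 CPM against 362 to 496 in the other libraries, while those of Lats1 overlap in all conditions.

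Of the LATS kinases, which phosphorylate YAP and TAZ, Lats2 rose in both transfectants and Lats1 did not pass. Lats1 (chr10:7681214-7716460, plus strand) stood at 111, 105 and 116 CPM in mock, at 108, 105 and 115 in EPR and at 115, 109 and 123 in EPRSTOPE. All 3 ranges overlapped, and the log2 differences were -0.01 (95% confidence interval -0.16 to 0.13) for EPR and 0.06 (-0.09 to 0.21) for EPRSTOPE against mock. Lats2 (chr14:57689662-57758388, minus strand) stood at 37.4, 40.7 and 42.3 CPM in mock, at 53.9, 64.4 and 56.0 in EPR and at 80.3, 80.4 and 86.8 in EPRSTOPE. The 3 conditions did not overlap, with EPR cells between mock and EPRSTOPE.

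Lats2 rose 2.05-fold in EPRSTOPE cells (log2 fold change 1.03, SE 0.08, adjusted p = 5.9e-07) and 1.45-fold in EPR cells (0.52, SE 0.08, adjusted p = 0.00019), as ratios of mean CPM. The direct log2 difference between EPR and EPRSTOPE was -0.51 (SE 0.08, adjusted p = 0.00047). The last 2 values lie at the limit on the fold change. Without mock library 203 or EPR library 207 the log2 difference between EPR and mock was 0.47 and 0.45 and did not pass, and without EPR library 206, EPR library 208 or EPRSTOPE library 211 the direct difference was -0.45, -0.47 and -0.47 and did not pass. With transcripts annotated as protein-coding alone the difference between EPR and mock was 0.34 and did not pass, and with counts rebuilt from TPM and length neither passed (0.55 and -0.61). The symbol Lats2 also holds 1 transcript of a second gene identifier at the same place, which took at most 10.5% of the Lats2 counts in a library. Reads shared by these overlapping annotations were divided by the quantifier.

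The genes around Lats2 were higher as well. For each of the 10 genes the 20 nearest tested genes on each side were taken, or as many as the chromosome held. On chromosome 14, the median over the 40 neighbours of Lats2 was 0.60 on the log2 scale in EPR and 0.77 in EPRSTOPE cells against mock, and 21 of them passed as higher in each comparison, beside 2 and 1 that passed as lower. The median of all 489 tested genes of chromosome 14 was 0.49 and 0.59. Lats2 itself differed from the median of its neighbours by -0.08 in EPR cells, by 0.27 in EPRSTOPE cells and by -0.31 between EPR and EPRSTOPE. Whether Lats2 moved with the chromosome or by itself was not tested.

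On chromosome 19, which holds Ankrd1 (chr19:36111961-36120099, minus strand), the tested genes had a median of -0.02 in EPR, of -0.56 in EPRSTOPE cells against mock and of 0.55 between EPR and EPRSTOPE. The 40 neighbours of Ankrd1 had medians of -0.01, -0.45 and 0.55. Ankrd1 exceeded them by 1.13 in EPR against mock, by 0.22 in EPRSTOPE against mock and by 0.80 in EPR against EPRSTOPE. For the other 8 genes the neighbours' medians lay between -0.26 and 0.13, with Amotl2 at 0.82 and Tead1 at -0.62 from the median of their neighbours in EPRSTOPE cells.

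**Figure D3:**
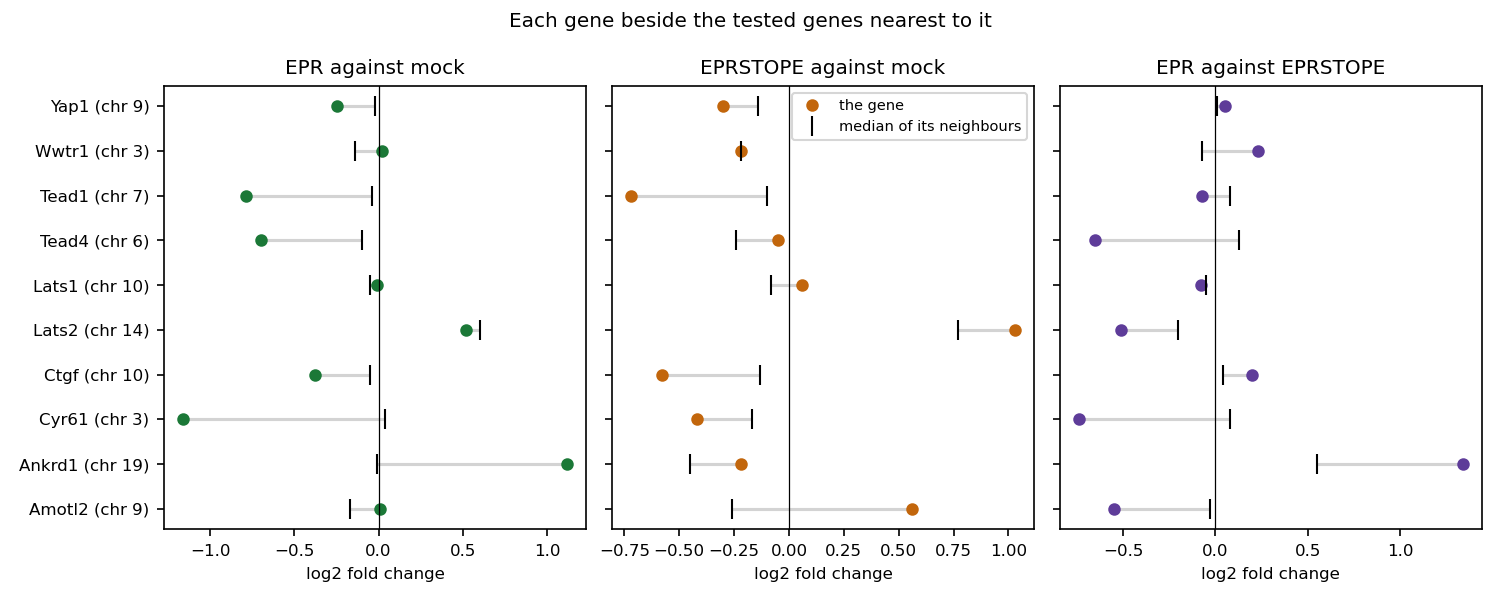
The log2 fold change of each gene (coloured point) is plotted beside the median of its 40 nearest tested genes (37 for Yap1, black tick), with 1 panel per comparison. The tick of Lats2 lies at 0.60 and 0.77 in the panels against mock and that of Ankrd1 at -0.45 and 0.55 in the panels with EPRSTOPE, while the ticks of the other 8 genes lie between -0.26 and 0.13.

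The target genes of YAP differed in direction. Ankrd1 encodes a nuclear and sarcomeric ankyrin-repeat protein and is widely used as a readout of YAP activity. It stood at 483, 496 and 490 CPM in mock, at 1023, 1162 and 1008 in EPR and at 466, 362 and 429 in EPRSTOPE. Ankrd1 rose 2.17-fold in EPR cells against mock (log2 fold change 1.12, SE 0.09, adjusted p = 4.9e-07), and all EPR libraries were above all others. In EPRSTOPE cells the log2 difference from mock was -0.22 (95% confidence interval -0.41 to -0.04, adjusted p = 0.045), which did not pass.

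Cyr61 (chr3:145646976-145649981, minus strand), a secreted matricellular protein of the CCN family, went the other way in EPR cells. It stood at 531, 544 and 521 CPM in mock, at 247, 249 and 219 in EPR and at 385, 364 and 444 in EPRSTOPE. The 3 conditions did not overlap, with EPR lowest and EPRSTOPE between. Cyr61 fell by 1.16 on the log2 scale in EPR cells (SE 0.08, adjusted p = 1.5e-07), or by 55.3% of the mean CPM in mock. The difference in EPRSTOPE cells was -0.42 (-0.59 to -0.25, adjusted p = 0.00064), short of the limit on the fold change. Without EPRSTOPE library 211 it was -0.51 and passed.

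Ctgf (chr10:24595442-24598683, plus strand), another CCN protein and a further standard readout of YAP, stood at 485, 520.5 and 518 CPM in mock, at 383, 416.5 and 373 in EPR and at 337.5, 295 and 387 in EPRSTOPE. All libraries of both transfectants were below mock, and EPR and EPRSTOPE libraries overlapped. Ctgf fell by 0.58 on the log2 scale in EPRSTOPE cells (SE 0.09, adjusted p = 0.00014), or by 33.1% of the mean CPM, and without EPRSTOPE library 210 (-0.49) or with counts rebuilt from TPM and length (-0.37) it did not pass. In EPR cells the log2 difference was -0.38 (-0.57 to -0.19, adjusted p = 0.003), which missed the limit on the fold change. The difference between EPR and EPRSTOPE was 0.20 (0.01 to 0.39, adjusted p = 0.1).

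The ratios between these 3 targets did not overlap between conditions. By TPM, Ankrd1 stood at 1.42 ± 0.0490 (SD, n = 3) times the level of Ctgf in mock, at 3.82 ± 0.0729 in EPR and at 1.76 ± 0.140 in EPRSTOPE cells, and the ranges of 1.38 to 1.47, 3.77 to 3.90 and 1.62 to 1.90 did not overlap. Cyr61 stood at 1.29 ± 0.0595 times the level of Ctgf in mock, at 0.733 ± 0.0390 in EPR and at 1.43 ± 0.0751 in EPRSTOPE cells, again with no overlap. Cyr61 was thus above Ctgf in all mock and EPRSTOPE libraries and below it in all EPR libraries.

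**Figure D4:**
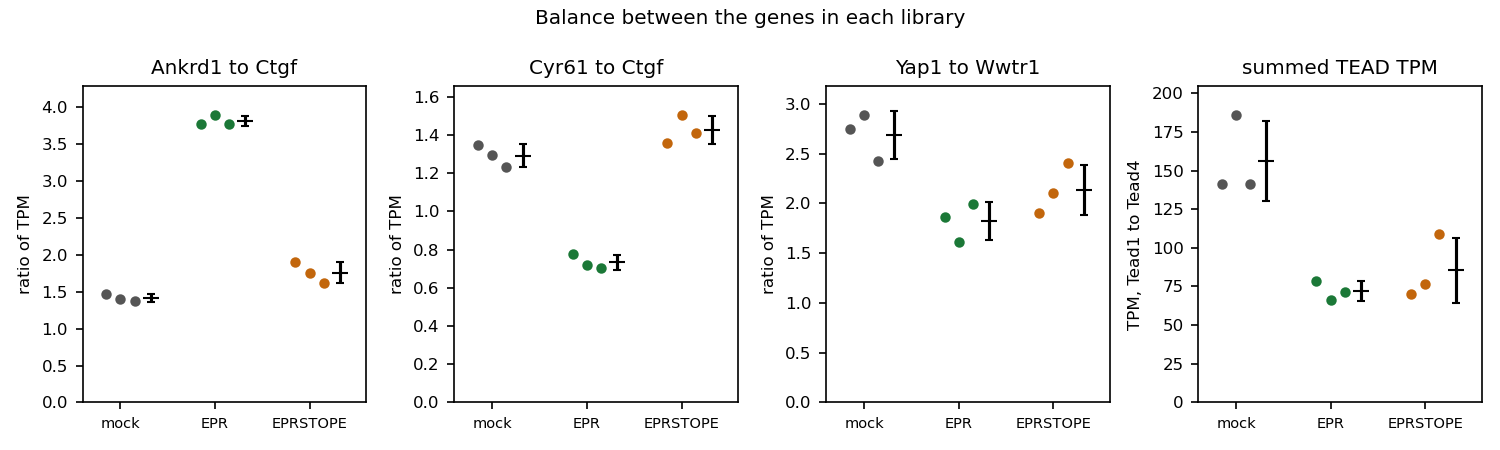
The ratios of Ankrd1 to Ctgf, of Cyr61 to Ctgf and of Yap1 to Wwtr1 TPM and the summed TPM of Tead1 to Tead4 are plotted for each library, with the mean and SD in black and axes from 0. The EPR libraries lie at 3.77 to 3.90 for Ankrd1 to Ctgf and at 0.702 to 0.777 for Cyr61 to Ctgf, apart from all other libraries.

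Amotl2 (chr9:102716672-102733418, plus strand), an angiomotin family protein that holds YAP at cell junctions, was higher in EPRSTOPE cells than in both other conditions. It stood at 413, 442 and 427 CPM in mock, at 435, 447 and 412 in EPR and at 628, 609 and 654 in EPRSTOPE. Amotl2 rose 1.48-fold in EPRSTOPE cells against mock (log2 fold change 0.56, SE 0.05, adjusted p = 2.9e-06) and was lower in EPR than in EPRSTOPE cells (-0.55, SE 0.05, adjusted p = 1.1e-05). EPR and mock libraries overlapped, with a log2 difference of 0.01 (95% confidence interval -0.10 to 0.13).

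Of the 10 genes, Amotl2 had the lowest share of counts in protein-coding transcripts, at 65.3% to 85.7% in a library. Its 14 transcripts included retained introns and a target of nonsense-mediated decay. The transcript Amotl2-201 took 30.0% to 47.6% of the counts in mock, 57.5% to 71.9% in EPR and 42.5% to 74.5% in EPRSTOPE libraries. Its own log2 differences from mock were 0.85 (SE 0.26, adjusted p = 0.1) and 1.28 (SE 0.27, adjusted p = 0.021), which did not pass. Amotl2-203 took 17.0% to 23.8% in mock, 2.51% to 12.5% in EPR and 5.70% to 22.9% in EPRSTOPE libraries. With counts rescaled from TPM and length, a fit that depends on this division, the differences of Amotl2 were -0.39 for EPR against mock, 0.13 for EPRSTOPE against mock and -0.52 between EPR and EPRSTOPE, and none passed.

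Of the 64 annotated transcripts of the 10 genes 44 passed the filter, and those that passed the cut-offs were Cyr61-201 and Ankrd1-201, the sole transcripts of their genes. In EPR against mock they had log2 fold changes of -1.11 (SE 0.09, adjusted p = 0.00019) and 1.17 (SE 0.10, adjusted p = 0.00024), and against EPRSTOPE of -0.71 (adjusted p = 0.0058) and 1.37 (adjusted p = 0.00044). Among all 45412 transcripts tested, 4.07% passed in EPR against mock, 4.64% in EPRSTOPE against mock and 0.854% in EPR against EPRSTOPE. Tead1-202, which held most of the Tead1 counts in mock cells, took 64.6% to 66.2% of them there and 27.2% to 69.6% in EPR libraries.

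Ordered by mean TPM, the target genes stood above the effectors in every condition. In mock cells the order was Amotl2 (326 ± 11.4 TPM, SD, n = 3), Ankrd1 (263 ± 26.4), Cyr61 (240 ± 27.1), Ctgf (186 ± 21.8), Yap1 (56.5 ± 9.99), Tead1 (36.8 ± 2.21), Wwtr1 (21.0 ± 2.15), Lats2 (14.9 ± 2.96), Lats1 (14.5 ± 0.926) and Tead4 (12.2 ± 2.67). The libraries of neighbours in this order overlapped for Ankrd1 and Cyr61, for Lats2 and Lats1 and for Lats1 and Tead4. In EPR cells Ankrd1 came first at 558 ± 73.5 TPM, above Amotl2 (218 ± 40.5), Ctgf (146 ± 16.4), Cyr61 (107 ± 13.0) and Yap1 (41.1 ± 1.09), each with no overlap with the next. Wwtr1 (22.7 ± 1.88), Lats2 (19.1 ± 4.64), Tead1 (16.6 ± 4.04) and Lats1 (16.2 ± 1.01) followed with overlapping neighbours, and Tead4 was last at 7.83 ± 1.53. In EPRSTOPE cells Amotl2 (318 ± 106) and Ankrd1 (224 ± 20.8) overlapped and stood above Cyr61 (182 ± 11.6) and Ctgf (128 ± 2.38). Lats2, at 29.6 ± 10.5 TPM, overlapped there with Yap1 (41.7 ± 7.48) above it and Wwtr1 (19.7 ± 3.99) below it.

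Beside the 10 genes, lists of other genes of the pathway were counted, and their shares of genes that passed are given in the order of EPR cells against mock, EPRSTOPE cells against mock, and EPR cells against EPRSTOPE cells. The shares of all tested genes were 28.1%, 28% and 13.2%. Of 20 genes for the core kinases and their activators 19 were tested, and 31.6%, 36.8% and 21.1% passed, the first near the share of all genes. In EPR cells 3 rose and 3 fell against mock, in EPRSTOPE cells 4 rose and 3 fell, and 2 passed as higher and 2 as lower in EPR against EPRSTOPE. Their median log2 fold changes were 0.07, 0.02 and 0.06. Frmd6, an upstream FERM-domain protein, fell in EPR cells, from 84.6 CPM in mock to 29.9 (log2 fold change -1.50, adjusted p = 2.6e-08), and fell to 51.4 in EPRSTOPE cells (-0.72, adjusted p = 1.2e-05). Wwc1, which encodes the activator KIBRA, rose in both, from 138 CPM to 216 (0.65) and 199 (0.53). The kinase gene Map4k4 fell in both, from 570 CPM to 372.5 (-0.61) and 356 (-0.68), and Map4k2 fell in EPRSTOPE cells, from 37.2 to 14.6 CPM (-1.35, adjusted p = 1.8e-07), on chromosome 19, where the median in EPRSTOPE cells was -0.55 over its other tested genes, whose part in this value was not tested. Mink1, a relative of Map4k4, rose in both (0.64 and 0.71), the kinase gene Taok3 rose in EPR cells (0.55) and Map4k5 in EPRSTOPE cells (0.59). The rise of Taok3 was in counts, and its mean TPM was lower in EPR (11.6) than in mock cells (15.7). Map4k3 was lower in EPR than in EPRSTOPE cells (-0.51, adjusted p = 3.2e-05), and Tnik was higher in EPR than in EPRSTOPE cells (adjusted p = 0.0035), with an imprecise fold from 42, 19 and 28 estimated counts in EPR against 2, 0 and 0 in EPRSTOPE libraries. Sav1, the scaffold of the MST kinases, rose in EPRSTOPE cells (0.62, adjusted p = 6.3e-06), and Mob1a, the co-activator of LATS, fell in EPR cells (-0.57, adjusted p = 1.2e-05). Short of the limit on the fold change were Sav1 in EPR cells (0.38, adjusted p = 0.00038) and Mob1a in EPRSTOPE cells (-0.42, adjusted p = 0.00013). Neither gene passed in EPR against EPRSTOPE. The MST genes themselves, named after their values were seen, did not pass, with log2 differences of 0.38 and 0.41 for Stk3 and -0.24 and -0.45 for Stk4 in EPR and EPRSTOPE cells.

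Among 12 other TEAD factors, partners and regulators of YAP and TAZ 10 were tested, and 40%, 60% and 10% passed in the 3 comparisons, the last near the 13.2% of all genes. In EPR cells 1 rose and 3 fell, in EPRSTOPE cells 2 rose and 4 fell, and 1 was higher in EPR than in EPRSTOPE. The medians were -0.09, -0.32 and 0.19. Beside Tead2 and Tead3, the angiomotin gene Amotl1 fell in both, from 66.5 CPM to 37.6 (-0.82, adjusted p = 2.2e-05) and 32.3 (-1.04, adjusted p = 3.5e-06), and Amot fell in EPRSTOPE cells (-0.59, adjusted p = 0.00098). Amotl2 was thus the angiomotin gene that rose in EPRSTOPE cells while Amot and Amotl1 fell. The LIM-domain genes Ajuba and Wtip, whose products restrain LATS, rose in EPRSTOPE cells (0.68 and 0.60). Ajuba lies on chromosome 14, whose median log2 fold change was 0.59 in these cells, and the part of this shift was not tested. Wtip also rose in EPR cells (0.54, adjusted p = 0.004). Ajuba had a log2 difference of 0.42 there (adjusted p = 0.0005), short of the limit on the fold change. The median of chromosome 14 was 0.49 in EPR cells, and its part was not tested. Vgll3, which encodes a TEAD cofactor, fell in EPRSTOPE cells (-0.59, adjusted p = 0.00097).

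Of 19 atypical cadherins and polarity proteins upstream of the cascade 15 were tested, and 53.3%, 33.3% and 40% passed, the second near the 28% of all genes. In EPR cells 4 rose and 4 fell, in EPRSTOPE cells 1 rose and 4 fell, and 5 passed as higher and 1 as lower in EPR against EPRSTOPE, with medians of -0.17, -0.36 and 0.38. The giant cadherin gene Fat1 rose in both, from 788 CPM to 1649 (1.07, adjusted p = 1.8e-08) and 1265 (0.68, adjusted p = 7.6e-07). Its relative Fat4 fell from 44.3 to 46.8 CPM in the mock libraries to 13, 4 and 4 estimated counts in EPR and 0, 6 and 1 in EPRSTOPE libraries, where 3 counts were taken as the limit of detection. The polarity genes Pard6b, Llgl2 and Patj rose in EPR cells (1.35, 1.17 and 1.08) and were also higher there than in EPRSTOPE cells (1.33, 1.09 and 0.98), with log2 differences of 0.02, 0.08 and 0.10 between EPRSTOPE and mock. Llgl1 fell in EPR cells (-0.83, adjusted p = 2.3e-06), as did the cadherin gene Fat2 (-0.98, adjusted p = 0.00059), and Prkci, which encodes an atypical protein kinase C, fell in EPRSTOPE cells (-0.55, adjusted p = 2.5e-05). The difference of Llgl1 in EPRSTOPE cells was -0.43 (adjusted p = 0.00045), short of the limit on the fold change. Fjx1, which is also listed among the targets of YAP, fell in EPR cells from 8.04 to 1.70 CPM (-2.27, adjusted p = 6.2e-05) and was lower there than in EPRSTOPE cells (-1.37, adjusted p = 0.0065). Crb2 and Crb3, at 6.80 and 1.54 CPM in mock, fell in EPRSTOPE cells to 4, 12 and 10 and to 0, 2 and 2 estimated counts.

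Of 17 other known targets of YAP and TAZ 16 were tested, and 50%, 37.5% and 25% passed, beside 28.1%, 28% and 13.2% of all genes. In EPR cells 3 rose and 5 fell, in EPRSTOPE cells 3 rose and 3 fell, and 1 passed as higher and 3 as lower in EPR against EPRSTOPE, with medians of 0.00, -0.10 and -0.12. Nt5e, the gene of the ectonucleotidase CD73, rose in both, from 1.14 to 2.17 CPM in the mock libraries to 23.7 to 28.0 in EPR and 29.7 to 34.7 in EPRSTOPE. Dock5 rose in both (0.98 and 1.30) and lies on chromosome 14, whose medians were 0.49 and 0.59, and their part was not tested. The kinase gene Nuak2 rose in both as well (0.90 and 0.65). Tgfb2, the gene of a TGF-β ligand, fell in EPR cells, from 32.8 to 5.55 CPM (-2.57, adjusted p = 6.7e-09), and stood at 28.9 CPM in EPRSTOPE cells (-0.18, adjusted p = 0.17). Foxf2, a transcription factor gene, fell in both, from 35.9 CPM to 12.7 (-1.49) and 24.1 (-0.57). The receptor kinase gene Axl was also lower, at 763 CPM in mock, 458.5 in EPR (-0.73, passed) and 541 in EPRSTOPE (-0.49, short of the limit). F3, the gene of tissue factor, fell in EPRSTOPE cells (-0.66, adjusted p = 0.00061). Ccdc80 was at 0 in every EPR library and at 7, 29 and 31 estimated counts in mock, so it was at least 7.24-fold lower in EPR cells with a floor of 3 counts per library. It also fell in EPRSTOPE cells, to 0, 4 and 2 estimated counts (adjusted p = 0.0043), with an imprecise fold. The difference of Ccdc80 between EPR and EPRSTOPE did not pass (adjusted p = 0.065).

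**Figure D5:**
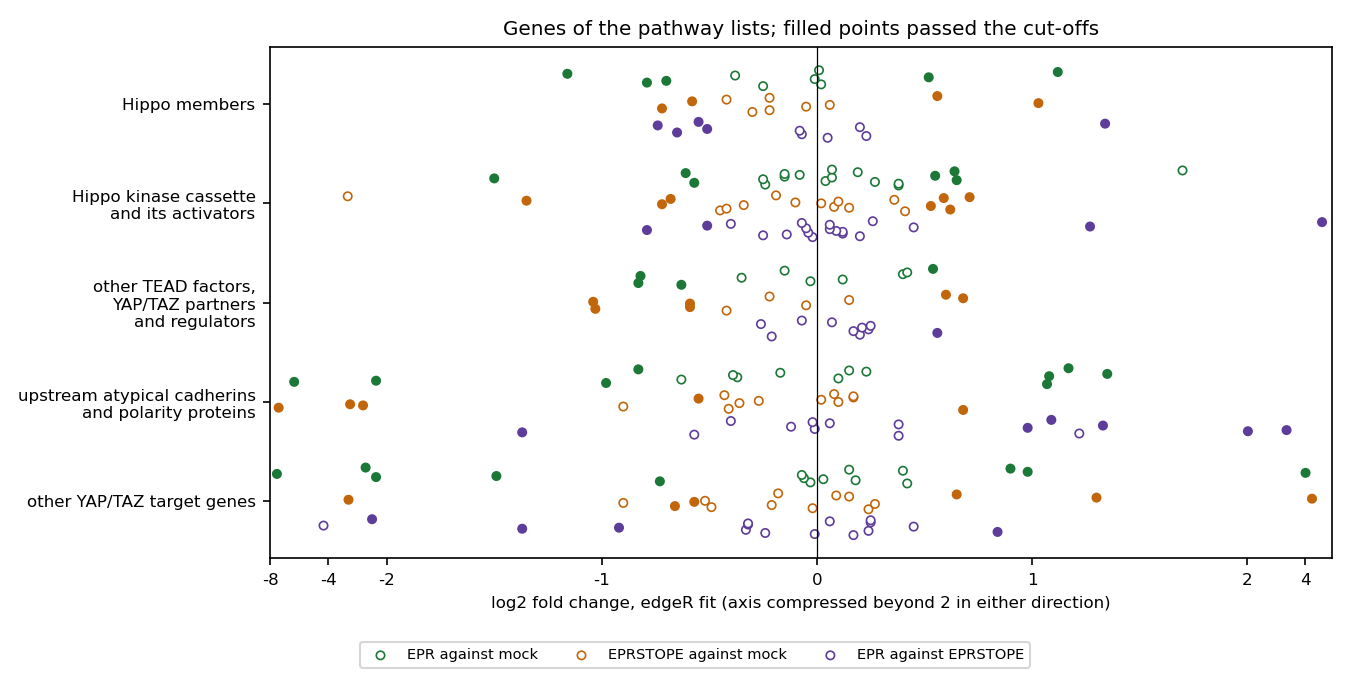
The fitted log2 fold change of every tested gene of 5 lists (the 10 Hippo-YAP genes, the kinase cassette, the TEAD factors and partners, the cadherins and polarity proteins, and the other targets) is plotted for the 3 comparisons, with filled points for genes that passed the cut-offs, on an axis that is linear to 2 and logarithmic beyond. Filled points lie on both sides of 0 in each list in EPR against mock and in EPRSTOPE against mock, and the position of Ccdc80 in EPR cells depends on the fit, since its EPR libraries are at 0.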

How the data were processed

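The 9 RNA-Seq libraries of NMuMG cells form 3 groups of 3, taken from the genotype labels, with the library numbers of the titles as replicate names. Per the labels, total RNA was sequenced in read pairs of 75 bases from stranded libraries. The authors quantified Gencode vM15 transcripts (GRCm38.p5) with kallisto 0.43.1 and deposited for each of 131100 transcripts an estimated count with no normalization. The authors also deposited a TPM, which is scaled by effective length to 1000000 per library. No per-sample columns beyond these 9 libraries and no comparisons by the authors were in the files. Sequencing batches and cell density at harvest are not given in the sources used here.

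Estimated counts were summed per gene symbol and rounded. The filter asked for 1 CPM or more in 3 libraries or more, and edgeR 4.0.16 gave the quasi-likelihood test of the genes kept (R 4.3.3, TMM normalization, 1 factor with 3 levels, all 9 libraries, Benjamini-Hochberg adjustment). A gene passed when the adjusted p was below 0.01 and the log2 fold change exceeded 0.5 in size. The study's methods give these cut-offs for transcripts tested with limma, while here they were used on counts per gene in edgeR. CPM values use TMM library sizes, and standard errors come from the F statistic. Alternatives used DESeq2 1.42.0, limma 3.58.1, other filters, counts rebuilt from TPM and omitted libraries. Fold changes below 3 counts per library are imprecise, and these limits cover counting error only. Python 3.11.15 was used for tables and figures.

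The members and lists were chosen with earlier results of these data known. All 10 members are named, and from each list the 4 largest rises and 4 largest falls per comparison among genes that passed and had at least 1 CPM in the higher group. Stk3, Stk4 and Wisp1 were named after their values were seen, and Axl was also named outside this rule. Promoter sequences are from RefSeq (GRCm38.p6).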

Additional observations from a re-analysis of the deposited data

Results flagged for a closer look

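For 5 of the 10 genes the changes in EPR and EPRSTOPE cells differed by the test of the difference itself, the comparison of EPR with EPRSTOPE in edgeR's quasi-likelihood test. Ankrd1 was higher in EPR by 1.34 on the log2 scale (adjusted p = 3.8e-07), with 1.12 in EPR and -0.22 in EPRSTOPE against mock. Cyr61 differed by -0.74 (adjusted p = 2e-05), with -1.16 and -0.42 against mock. Tead4 differed by -0.65 (adjusted p = 0.00036), with -0.70 and -0.05. Amotl2 differed by -0.55 (adjusted p = 1.1e-05), with 0.01 and 0.56. Lats2 differed by -0.51 (adjusted p = 0.00047), with 0.52 and 1.03, and this call was lost when EPR library 206 (-0.45), EPR library 208 (-0.47) or EPRSTOPE library 211 (-0.47) was left out. With counts rebuilt from TPM and length, the differences of Tead4 (-0.63), Amotl2 (-0.52) and Lats2 (-0.61) did not pass.

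The neighbours of Ankrd1 on chromosome 19 differed between EPR and EPRSTOPE by a median of 0.55 and those of Lats2 on chromosome 14 by -0.20, against medians of -0.07 to 0.13 for the other 8 genes. EPR RNA itself stood at 24.9 CPM in EPR and 4.24 CPM in EPRSTOPE cells. The part of either in the 5 differences was not tested.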

How the results depend on the processing

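Of 510 values of the 10 genes under alternatives, 476 kept direction and side of the cut-offs, 18 lost and 1 gained the call, and 15 changed sign. Leaving out 1 library gave 3816 to 4328 genes and 4 to 5 members in EPR against mock, 3817 to 4251 genes and 3 to 5 members in EPRSTOPE against mock, and 1664 to 2026 genes and 4 to 5 members in EPR against EPRSTOPE. Counts rebuilt from TPM and length left 3, 1 and 2 members (Tead1, Cyr61 and Ankrd1, Lats2, and Cyr61 and Ankrd1) and 901 genes in EPR against EPRSTOPE; the cause was not tested. An adjusted p under 0.05 with no fold limit passed 7478, 7442 and 4637 genes, with 8 members in EPRSTOPE against mock. A log2 limit of 1 passed 2296, 2373 and 1001 genes and 2, 1 and 1 members. DESeq2 and limma passed the same number of members as edgeR.

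All changes of sign were in values that had not passed, and leaving out 1 library gave at the other end of the range -0.06 for Lats1 and 0.06 for Amotl2 in EPR against mock, -0.11 for Tead4 in EPRSTOPE against mock and -0.16 for Tead1 between EPR and EPRSTOPE. In EPR against mock they were Wwtr1 (-0.01, protein-coding transcripts alone), Lats1 (0.00 with 10 counts in every library or with the compared groups alone, 0.36 with counts from TPM, 0.02 without mock 205 or EPR 207) and Amotl2 (-0.39 with counts from TPM, -0.02 without mock 203, -0.01 without EPR 207). In EPRSTOPE against mock they were Wwtr1 (0.08) and Tead4 (0.18) with counts from TPM, Tead4 without mock 204 (0.01) or EPRSTOPE 210 (0.00), and Lats1 (-0.01, protein-coding transcripts alone). Between EPR and EPRSTOPE it was Tead1 without EPRSTOPE 211 (0.01). The direct difference of Lats2 did not pass with no filter (-0.49), with 10 counts in every library (-0.48), with the compared groups alone (-0.50) or with counts from TPM (-0.61), where the difference from mock in EPR cells (0.55) and that of Ctgf in EPRSTOPE cells (-0.37) did not pass either. No paired analysis was possible because the groups share no library numbers.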

Other observations

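Of 6 relatives of Ctgf, Cyr61 and Ankrd1, 3 were tested. The share that passed was 33.3% in EPR and 66.7% in EPRSTOPE cells against mock and 33.3% between the transfectants, beside 28.1%, 28% and 13.2% of all tested genes. In EPR cells 1 passed as higher, in EPRSTOPE cells 1 as higher and 1 as lower, and 1 was lower in EPR than in EPRSTOPE. Wisp2, a CCN family gene, was at 3, 4 and 4 estimated counts in the mock libraries, at 28, 22 and 32 in EPR and at 41, 88 and 45 in EPRSTOPE, so that it rose in both where Cyr61 fell or did not pass. The mock counts are close to 3, and the size of its fold change is imprecise. Wisp1, named after its values were seen, stood at 222.5, 209 and 186 CPM with log2 differences of -0.09 and -0.26 from mock and did not pass. Ankrd23, a relative of Ankrd1, fell in EPRSTOPE cells, from 6.40 to 2.55 CPM (-1.32, adjusted p = 0.0048), and had a log2 difference of -0.56 (adjusted p = 0.15) in EPR cells, where Ankrd1 rose.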
